A study of Mus musculus with 16 samples.

Results

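The complement and coagulation genes of the liver were examined in maps of open chromatin from male and female mice of 2 inbred strains. The set comprised 38 genes, and its regions were every DNase hypersensitive site (DHS), a stretch of DNA that the enzyme DNase I cuts readily because it is open, between 20 kb upstream and 20 kb downstream of a gene. All 38 genes were found in the annotation and all 38 had at least 1 region. They held 207 regions of the 51482 in the 4 lists joined together, beside 41697 regions that lay within 20 kb of any protein-coding gene. Of the 207 regions, 25 lay in the windows of more than 1 of the 38 genes and were counted a single time, and 140 had a start site of 1 of the 38 genes as their nearest transcription start site (TSS). The strongest summit of a region lay outside protein-coding genes in 94 regions, in an intron in 81, in a UTR exon in 16, in a coding exon in 15 and in a noncoding exon in 1.

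Liver nuclei came from untreated mice of 8 weeks of age of the strains C57BL/6J (B6), whose genome is the basis of the mouse reference, and CAST/EiJ (CAST), which was bred from wild-caught mice. There were 4 groups (male B6, female B6, male CAST and female CAST) of 4 libraries each, and nuclei of all groups were treated with 32 units of DNase I. The authors merged the 4 libraries of a group before calling DHS, so each group is a single list, no spread between mice could be computed and no test was possible: counts and ratios below describe these 4 lists. The lists held 24888 to 39562 DHS, more in males than in females of the same strain, and the background in reads was 15.4 for male B6 and 13.9 for female B6, and 14.3 for male CAST and 7.94 for female CAST. The weakest DHS at that background had 30, 28, 28 and 19 reads at its summit, in the same order, or 1.90-fold, 1.94-fold, 1.90-fold and 2.24-fold enrichment. A DHS absent from a list is therefore a site where no peak was called at this depth, not a site shown to be closed.

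The value given for a DHS is its fold enrichment, the reads at its summit over the local background of its list. All 6 hepatocyte markers examined had a DHS within 2.5 kb of a TSS in each list. No marker of 5 for lymphocytes had any. Markers of liver endothelial cells had a promoter DHS for 5 of 5 genes in male B6 and 3 in female B6, and for 1 in each CAST list, with a summed fold enrichment of 15.9, 9.31, 8.13 and 5.45. Of 5 markers each, Kupffer cells had a promoter DHS for 0, 0, 1 and 0, stellate cells for 2, 1, 2 and 0 and bile duct cells for 2, 1, 2 and 1, in the same order, with a summed fold enrichment of at most 2.83, 5.78 and 8.20. The lists therefore moved in these markers with sex and strain as well, and the part of that in the results below was not tested. In tissue of mixed cells, fewer cells of a type and a less open site in each cell cannot be told apart.

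Complement and clotting are cascades of plasma proteins, most of them made and secreted by hepatocytes, in which each protease cuts and activates the next. In the complement system, lectins and antibodies start cleavage of C4, C2 and C3, and the terminal components then assemble into a pore in the target membrane. In clotting, the factors converge on thrombin, which turns fibrinogen into fibrin, while anticoagulants hold the cascade in check and plasmin dissolves the clot. Hepatocyte promoters are known to be bound by HNF4, C/EBP, FOXA and HNF6 factors, and STAT5, which growth hormone activates, acts in sex-dependent gene expression of the liver.

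The regions on which the comparisons below turn are shown as the mm9 reference sequence of the plus strand, 5′ to 3′, over up to 200 bp at the strongest summit, without UTR bases. Capitals mark matches to the motifs searched on both strands. The reference is the B6 sequence, also for regions that were stronger or present in CAST alone. The first pair, at C6, and the third, at Kng1, are regions that were absent in female B6 and strong in males, and the capitals in the C6 upstream sequence are an HNF6 match and those in the Kng1 promoter a C/EBP match.
C6 promoter, chr15:4677057-4677174: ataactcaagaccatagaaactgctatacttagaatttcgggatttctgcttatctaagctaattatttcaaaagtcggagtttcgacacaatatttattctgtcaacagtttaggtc
C6 upstream region, chr15:4668266-4668465: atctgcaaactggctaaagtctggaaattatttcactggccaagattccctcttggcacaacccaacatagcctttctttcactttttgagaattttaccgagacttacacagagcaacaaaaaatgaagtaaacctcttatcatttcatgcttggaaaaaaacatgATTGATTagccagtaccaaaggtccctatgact
Kng1 promoter region, chr16:23058134-23058322: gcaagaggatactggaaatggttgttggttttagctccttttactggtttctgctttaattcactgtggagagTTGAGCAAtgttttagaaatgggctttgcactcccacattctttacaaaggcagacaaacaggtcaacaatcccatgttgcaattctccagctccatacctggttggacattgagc

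At C3, the promoter differed between the strains in both sexes and the upstream region was the only region of the set found in both female lists and in neither male list; the capitals in the promoter are a C/EBP match.
C3 promoter, chr17:57367574-57367773: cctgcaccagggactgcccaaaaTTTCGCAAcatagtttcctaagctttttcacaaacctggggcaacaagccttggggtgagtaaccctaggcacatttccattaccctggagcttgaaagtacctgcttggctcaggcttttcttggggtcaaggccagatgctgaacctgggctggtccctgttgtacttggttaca
C3 upstream region, chr17:57375482-57375681: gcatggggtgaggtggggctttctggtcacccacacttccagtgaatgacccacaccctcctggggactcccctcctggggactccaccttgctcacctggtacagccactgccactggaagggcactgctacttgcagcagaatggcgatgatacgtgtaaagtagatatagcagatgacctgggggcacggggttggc

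The next sequences are the region 3′ of F5 that was stronger in CAST, the region upstream of Mbl1 whose sex difference was opposite in the 2 strains (capitals mark an HNF6 and then a STAT5 match), the region 3′ of F11 that was stronger in males (capitals mark an HNF4 match), the intronic C8b region found only in CAST, and the Pros1 promoter, which was called in all lists but female CAST (capitals mark a C/EBP and then an HNF4 match).
F5 3′ region, chr1:166150549-166150748: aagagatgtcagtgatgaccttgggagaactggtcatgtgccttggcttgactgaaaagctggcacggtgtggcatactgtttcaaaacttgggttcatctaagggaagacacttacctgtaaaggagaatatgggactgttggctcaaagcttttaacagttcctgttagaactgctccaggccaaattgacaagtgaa
Mbl1 upstream region, chr14:41954075-41954274: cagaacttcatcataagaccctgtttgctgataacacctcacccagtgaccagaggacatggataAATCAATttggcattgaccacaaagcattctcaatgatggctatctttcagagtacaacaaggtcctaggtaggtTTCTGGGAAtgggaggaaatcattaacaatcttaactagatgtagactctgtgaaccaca
F11 3′ region, chr8:46324738-46324937: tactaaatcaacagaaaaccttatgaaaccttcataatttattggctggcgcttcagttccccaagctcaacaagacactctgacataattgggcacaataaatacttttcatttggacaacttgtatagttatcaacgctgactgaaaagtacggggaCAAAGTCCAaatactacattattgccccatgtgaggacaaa
C8b intronic region, chr4:104440699-104440898: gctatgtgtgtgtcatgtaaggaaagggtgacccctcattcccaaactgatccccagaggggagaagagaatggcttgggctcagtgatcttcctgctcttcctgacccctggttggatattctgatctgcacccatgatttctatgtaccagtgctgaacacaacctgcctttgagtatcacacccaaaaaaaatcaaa
Pros1 promoter region, chr16:62854499-62854698: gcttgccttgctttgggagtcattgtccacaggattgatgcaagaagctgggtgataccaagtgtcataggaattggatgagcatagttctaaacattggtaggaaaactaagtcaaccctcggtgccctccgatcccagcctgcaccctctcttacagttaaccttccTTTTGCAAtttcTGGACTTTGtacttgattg

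A larger share of the regions of these genes than of regions at large was found in all 4 lists. In all 4 lists there were 110 of 207 regions, 53.1%, compared with 35.6% of all regions and 38.1% of those within 20 kb of a protein-coding gene. Of the 207, 174 were called in male and 134 in female B6, and 169 in male and 128 in female CAST. A single list held 53 of them (25.6%), compared with 35.2% of all regions and 33.5% of those near a protein-coding gene. The sharing differed by role: 9 of 13 regions at the fibrinogen genes were in all 4 lists (69.2%), 13 of 21 at the complement control genes (61.9%), 27 of 47 at the clotting factors (57.4%), 28 of 52 at the recognition and convertase genes (53.8%), 19 of 38 at the anticoagulant and fibrinolysis genes (50.0%) and 14 of 36 at the terminal complement genes (38.9%). The regions of these genes lay nearer to start sites than regions at large, with 106 (51.2%) more than 2.5 kb from any TSS, compared with 67.1% of all regions and 59.9% of those near a protein-coding gene. Of these 106, 42.5% were in all 4 lists, compared with 24.0% of all such regions and 23.9% of those near a protein-coding gene. The median fold enrichment of the 207 regions was 3.64 for male and 3.16 for female B6, and 4.04 for male and 3.99 for female CAST, compared with 3.50, 3.31, 3.75 and 4.10 over all regions.

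**Figure D1:**
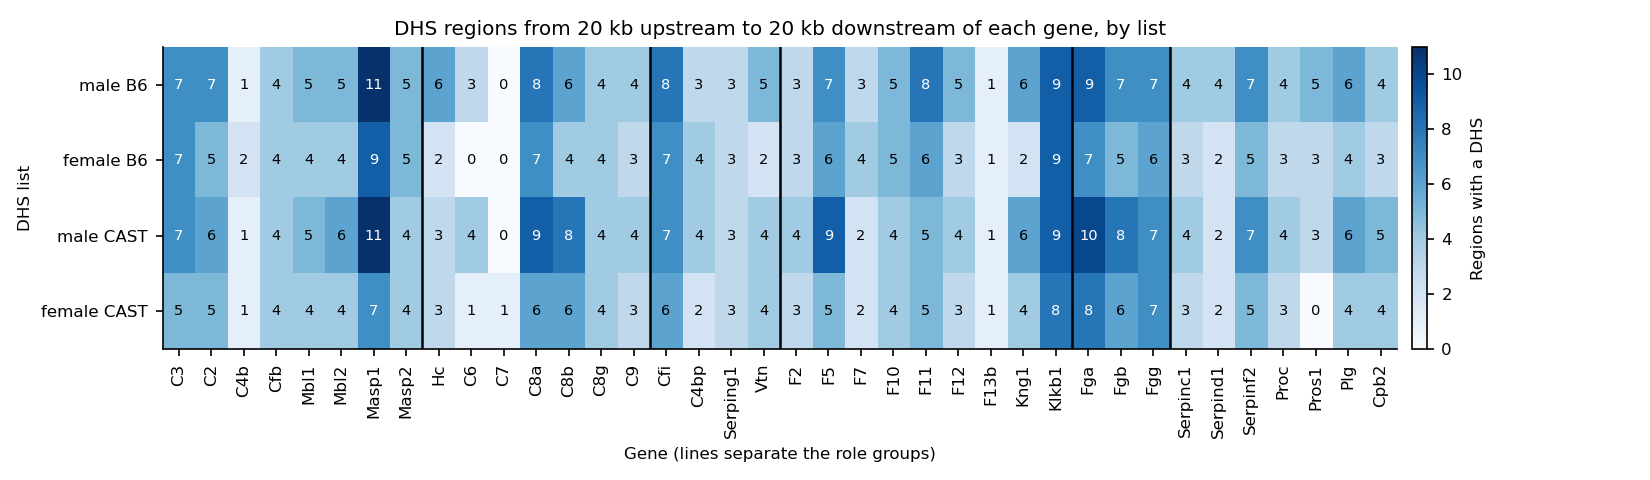
Number of DHS regions within 20 kb of each of the 38 genes (columns, with lines between role groups) in the 4 pooled lists (rows); the number in a cell and its shade give the count. Masp1 had 11 regions in each male list, C6 had 0 in female B6, and Pros1 had 0 in female CAST.

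Every gene had a region within 2.5 kb of its own TSS, its promoter region. For 33 of 38 genes (86.8%) that region was in all 4 lists, compared with 35.6% of all regions. Of all regions 67.1% lay more than 2.5 kb from any TSS, and promoters of other genes were not compared. The promoters not in all 4 lists were C6 and Kng1, absent in female B6, Fgb and Pros1, absent in female CAST, and C7, present in female CAST alone. The most enriched promoter in male B6 was that of F7, the protease that with tissue factor starts clotting, at 12.4-fold in male B6, 8.60-fold in female B6, 13.7-fold in male CAST and 10.6-fold in female CAST. The promoter of Cfb, the protease of the alternative complement pathway, followed with 12.1-fold, 8.10-fold, 11.5-fold and 11.7-fold in the same order. That of F13b, the carrier subunit of the fibrin-crosslinking factor, had 9.68-fold, 5.33-fold, 9.72-fold and 8.20-fold enrichment. These 3 promoters exceeded at least 83.1% of all DHS of each list. The promoter with the lowest value in male B6 was that of Serpinf2, the inhibitor of plasmin, at 2.72-fold, 2.60-fold, 3.66-fold and 2.94-fold. That of C9, the component that polymerises into the pore, had 2.86-fold, 2.68-fold, 2.68-fold and 2.58-fold.

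Fold enrichment over shared regions was higher in males, and ratios between lists were therefore divided by the median ratio over all regions shared by the 2 lists: 1.32 for male over female in B6, 1.19 for male over female in CAST, 0.947 for B6 over CAST in males and 0.842 in females. Before this centring, male B6 exceeded female B6 at 35 of 35 shared promoters and male CAST exceeded female CAST at 30 of 35. After it, the median log2 ratio of the promoters was 0.03 in B6 and 0.02 in CAST. In each strain 2 of 35 promoters passed 1.5-fold, all higher in males: C4b and Serpinc1 in B6, C6 and Kng1 in CAST. Of all shared regions, 2.62% in B6 and 3.31% in CAST passed it towards males. Between the strains, the C3 promoter passed 1.5-fold in both sexes and that of Serping1 in females, both higher in B6. These were 1 of 37 shared promoters in males and 2 of 33 in females, compared with 4.49% and 3.42% of all shared regions.

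**Figure D2:**
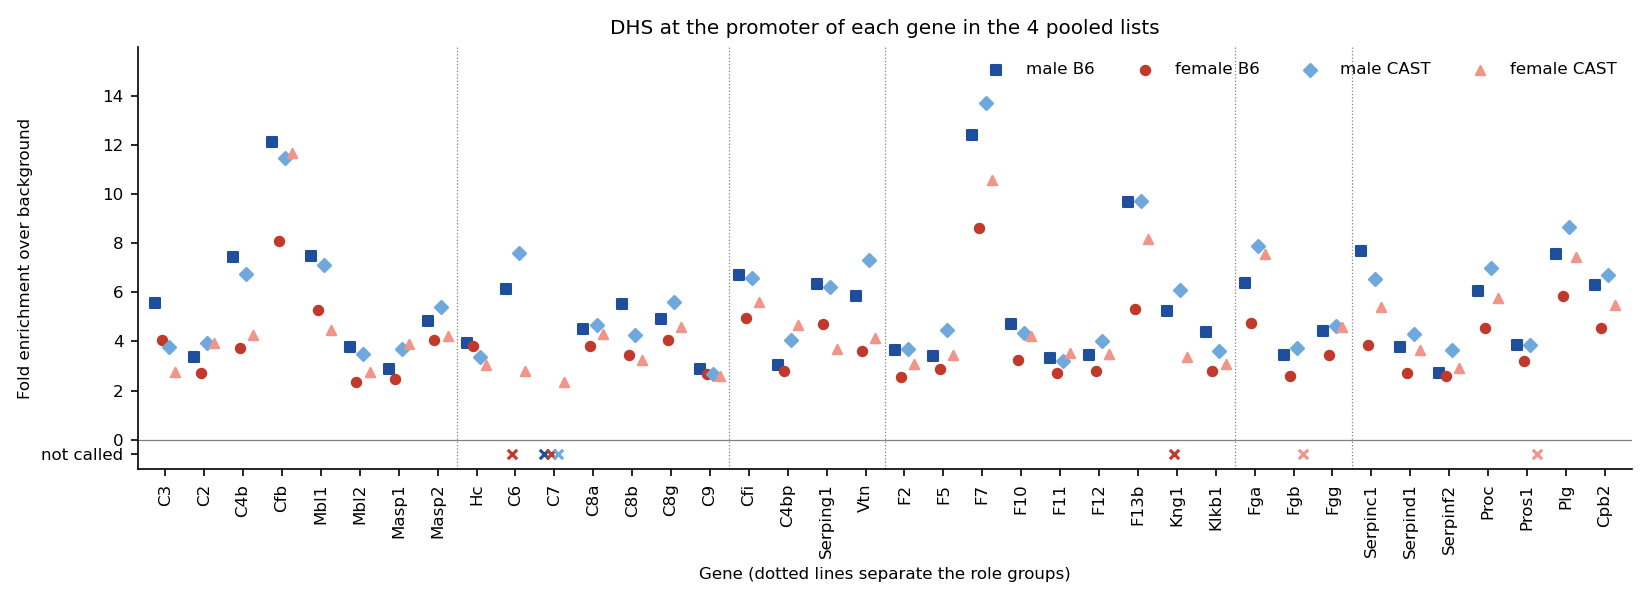
Fold enrichment over background (linear axis) of the promoter DHS of each gene in the 4 pooled lists; points are single values without error bars, since each list pools 4 libraries, and crosses under the axis mark a promoter not called in that list. F7 and Cfb stood highest, and crosses stand for female B6 at C6 and Kng1, for female CAST at Fgb and Pros1, and for all lists but female CAST at C7.

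In the comparison of male and female B6, regions found in males only were common at these genes, as they were in the genome. Of 181 regions in either list, 47 were in male B6 only, 26.0%, compared with 36.4% of all regions, and 7 were in female B6 only, 3.87% compared with 5.13%. Among 127 shared regions, 5 were over 1.5-fold higher in males (2.62% of all shared regions were) and 4 were over 1.5-fold higher in females (2.6% were). Lists cut to the same 24888 highest-scoring DHS have near-equal one-list counts over all regions by construction, so they cannot test the male excess. In these lists 12 of 143 regions were in male B6 only (8.39%) and 15 in female B6 only (10.5%). The shares of all regions were 14.3% and 13.1%. Without centring, 29 shared regions were past the limit, all of them higher in males, 22.8% compared with 24.3% of all shared regions.

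In CAST the counts were similar. Of 172 regions, 44 were in male CAST only, 25.6%, compared with 40.3% of all regions, and 3 were in female CAST only, 1.74% compared with 3.9%. Of 125 shared regions 4 were over 1.5-fold higher in males, where 3.31% of all shared regions were, and 4 were higher in females, where 2.56% were. With lists of equal size, 15 of 143 regions were in male CAST only (10.5%) and 11 in female CAST only (7.69%), compared with 14.9% and 13.6% of all regions. Without centring, 17 were past the limit, all higher in males, 13.6% compared with 12.5% of all shared regions. The male list held more regions than the female list at 25 genes in B6 (65.8%, compared with 53.0% of the protein-coding genes with a region) and at 24 genes in CAST (63.2%, compared with 58.8%). It held fewer at 3 genes in B6 (C4b, C4bp and F7, 7.89% compared with 4.97%) and at C7 in CAST (2.63% compared with 3.27%). The counts were equal at 10 genes in B6 and 13 in CAST, compared with 42.0% and 37.9% of the protein-coding genes. Genes were not matched for their number of regions, so these shares do not measure a tilt towards males.

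Few regions differed by sex in the same way in both strains. Both male lists and neither female list held 10 regions, 4.83% of the 207 compared with 9.38% of all regions, and 1 region, upstream of C3, in both female lists and in neither male list, 0.483% compared with 0.0622% of all regions. These counts depended on the thresholds: lists of equal size gave 2 male-only regions (1.25%, compared with 2.29% of all regions) and 3 female-only regions (1.88%, compared with 0.953%), the latter at C3, Fgg and Masp2. A −log10 q of at least 15.7 in every list gave 43 male-only regions of 129 (33.3%, compared with 20.2% of all regions) and 0 female-only (compared with 0.0158%). Of the 110 regions in all 4 lists, 0 passed 1.5-fold towards males in both strains (0.426% of all such regions did) and 0 towards females (0.0874% did). Without centring there were 7, all towards males, 6.36% compared with 5.22% of all regions in all 4 lists. Counting a region that was male-only or over 1.5-fold higher in males in each strain, a count chosen after the data were seen, gave 12 of 146 regions, 8.22% compared with 17.2% of all regions, and the same count towards females gave the C3 region alone, compared with 0.245%. The 12 regions lay at C6 (3), Kng1 (2), C4bp, F5, Serpinf2, F12, Mbl1, Plg and Fgb.

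C6, a terminal component of the pore, whose locus the study displayed as an example, carried the strongest of these. The region over its TSS (chr15:4676783-4677880) had 6.15-fold enrichment in male B6, no DHS in female B6, 7.59-fold in male CAST and 2.80-fold in female CAST. These came from 160 reads at the summit in male B6 (95% Poisson interval 136 to 187), 179 in male CAST (154 to 207) and 24 in female CAST (15.4 to 35.7). The intervals cover counting error only, and the reads are not comparable between lists of different background. In CAST the male exceeded the female 2.28-fold after centring, the only shared region of the set over 2-fold by sex. Where peaks had to overlap by 50% to be joined, or to pass a −log10 q of 15.7, the region was not shared and this ratio had no value. The DHS was also longer in males, with widths of 1082 bp (male B6), 1084 bp (male CAST) and 510 bp (female CAST).

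A second C6 region, 8345 bp upstream of the TSS (chr15:4667935-4668830), had 5.69-fold enrichment in male B6 and 4.52-fold in male CAST and was called in neither female list. With 107 and 68 reads it was 1 of 2 regions in both male lists only that passed a −log10 q of 15.7 in both; the other covered the TSS of Serpinf1, a gene next to Serpinf2, with 2.80-fold and 2.88-fold. A weaker C6 region in an intron, 6893 bp from the TSS, had 2.56-fold and 2.08-fold enrichment in the males and no call in females, and another at 13736 bp was called in male CAST alone, at 2.36-fold. The C6 window thus held 3 regions for B6 males and 0 for B6 females, and 4 for CAST males and 1 for CAST females.

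Kng1 encodes kininogen, the cofactor of contact activation that releases bradykinin. The region over its TSS (chr16:23058026-23058669) had 5.26-fold enrichment in male B6, no DHS in female B6, 6.10-fold in male CAST and 3.36-fold in female CAST, from 85, 92 and 29 reads in the lists that held it. The male value in CAST was 1.53-fold higher after centring. A region 1302 bp upstream was called in both male lists, at 2.94-fold and 3.87-fold, and in neither female list. A pair of sites further upstream were in all 4 lists, at 5.25-fold to 6.35-fold and at 3.67-fold to 7.19-fold, and differed by less than 1.5-fold between the sexes after centring. Kng1 has a close paralog, Kng2, and only reads that mapped to a single place were used, so reads from stretches that the 2 genes share could be missing.

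The other regions in both male lists only were weak, at 1.92-fold to 2.87-fold in male B6, and none of them lay over the TSS of a member gene. They lay in an intron of C4bp, in an intron of F5, over a UTR exon of F12, downstream of Mbl1, upstream of Plg and upstream of Fgb, where the fold enrichment was 1.92 in male B6 and 2.15 in male CAST. The least enriched of them, at Fgb, exceeded 1.83% of the DHS in the male B6 list.

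C3, the component on which all complement pathways meet, held the female-only region. It lay 7923 bp upstream of the TSS (chr17:57375482-57376056), over a coding exon of Gpr108, and had 2.33-fold enrichment in female B6 and 2.37-fold in female CAST, with no DHS in either male list. Both values were low for their lists, above 12.5% and 2.87% of the DHS, and rested on 56 and 38 reads. It was also in both female lists only when lists of equal size were compared.

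**Figure D3:**
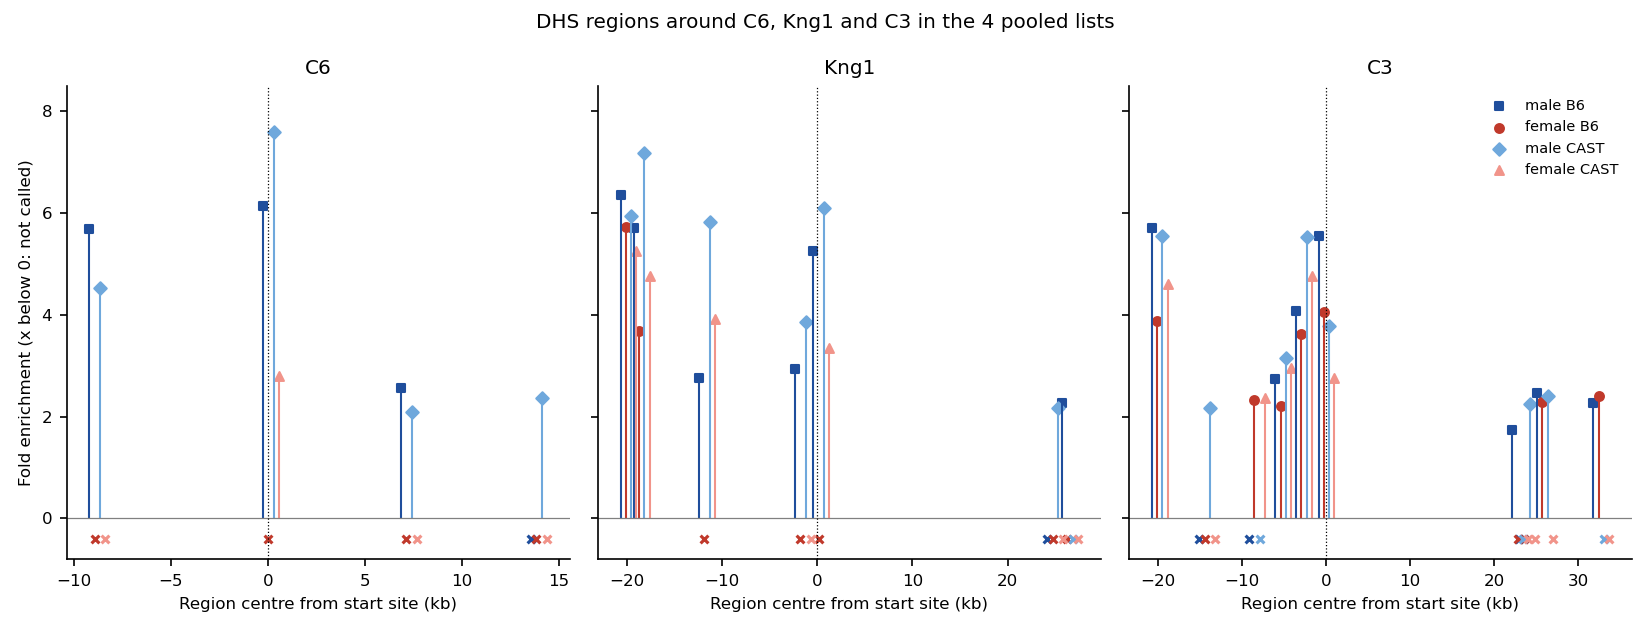
Fold enrichment (linear axis) of each DHS region around C6, Kng1 and C3 by the distance of its centre from the TSS in kb, negative upstream; the 4 lists of a region are drawn side by side, and crosses under the axis mark lists without a DHS. At C6 and at the Kng1 TSS female B6 has no value, and where both CAST lists have one the male value stands above the female. C3 shows values of both sexes at 6 of 10 sites, female values alone at 1 site and a value of a single male list at 3 sites.

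Several regions differed by sex past 1.5-fold in a single strain, and those described here were chosen after their values were seen. The promoter of Serpinc1, which encodes antithrombin, had 7.69-fold enrichment in male B6, 3.85-fold in female B6, 6.55-fold in male CAST and 5.42-fold in female CAST, and was 1.51-fold higher in males after centring in B6 and 1.02-fold in CAST. The C4b promoter had 7.46-fold, 3.75-fold, 6.75-fold and 4.25-fold, or 1.51-fold and 1.33-fold higher in males. Both were above the females in each strain, but B6 alone passed the limit, by a small margin. C4b has a near-identical copy close by, where uniquely mapped reads can be lost, and its levels are uncertain for that reason.

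A region 5777 bp upstream of Proc, which encodes the anticoagulant protein C, had 6.52-fold enrichment in male B6, 2.60-fold in female B6, 3.54-fold in male CAST and 3.09-fold in female CAST. Male B6 stood apart from the other 3 lists, at 1.90-fold over female B6 and 1.94-fold over male CAST after centring, while male CAST was 0.963-fold of female CAST. A region in the Klkb1 window that lies in an intron of Cyp4v3 had 7.42-fold, 3.22-fold, 5.91-fold and 3.82-fold, higher in males 1.75-fold in B6 and 1.30-fold in CAST. The region 3′ of F11, a protease of contact activation, had 6.08-fold, 3.11-fold, 8.13-fold and 3.98-fold, higher in males 1.72-fold in CAST and 1.48-fold in B6, the value nearest below the limit there. In both strains its males lay above its females.

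Regions with a higher centred ratio in females were weaker. In B6 they were a region upstream of Mbl1 (1.72-fold), an intronic region of F2 (1.58-fold), a region of Fgg (1.52-fold) and an intronic region of Masp1 (1.51-fold), and in CAST a region of Fga (1.70-fold), an intronic region of C8a (1.62-fold), a region downstream of Mbl2 (1.59-fold) and a region in C8g (1.55-fold). Other than the Mbl1 region their fold enrichment was at most 4.03 in any list, and without centring none of these 8 passed the limit. The members nearest the limit of 1.5 were C4b (1.51-fold) and F11 (1.48-fold) for male B6, Masp1 (1.51-fold) and Cfi (1.46-fold) for female B6, Mbl1 (1.51-fold) and Vtn (1.48-fold) for male CAST, and C8g (1.55-fold) and a region of Masp1 just short of the limit for female CAST.

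Between the strains, a smaller share of the regions of these genes than of all regions was found in a single list of a pair. In males, 30 of 199 regions were in B6 only, 15.1% compared with 19.1% of all regions, and 25 were in CAST only, 12.6% compared with 20.9%. With lists of equal size the order turned, to 9 in B6 only and 13 in CAST only, 6.38% and 9.22% of the regions in either list, compared with 16.1% and 16.1% of all such regions. Among 144 shared regions, 2 were over 1.5-fold higher in B6 (4.49% of all shared regions were) and 9 in CAST (6.68% were). In females, 23 of 151 were in B6 only, 15.2% compared with 22.6%, and 17 in CAST only, 11.3% compared with 18.3%, and of 111 shared regions 5 were over 1.5-fold higher in B6 (3.42% were) and 5 in CAST (4.97% were). Without centring, the split was 1 to B6 and 11 to CAST in males (0.694% and 7.64%, compared with 3.17% and 8.81% of all shared regions), and 0 and 16 in females (the latter 14.4%, compared with 0.823% and 14.97% of all).

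Strain differences of the same direction in both sexes were seen at 3 of the 110 regions in all 4 lists: 1 higher in B6 (0.863% of all such regions were) and 2 higher in CAST (2.18% were). By presence, 4 regions were in both B6 lists only, 1.93% compared with 3.32% of all regions, and 4 in both CAST lists only, 1.93% compared with 3.62%. Together, B6-only or over 1.5-fold higher in B6 in each sex held for 5 of 143 regions, 3.50% compared with 8.5%, and the same towards CAST for 8, 5.59% compared with 10%; these joint counts were also chosen after the data were seen.

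The C3 promoter (chr17:57367120-57367922) was the region higher in B6, at 5.56-fold in male B6, 4.06-fold in female B6, 3.78-fold in male CAST and 2.76-fold in female CAST. Each B6 list lay above its CAST counterpart, 1.55-fold in males and 1.74-fold in females after centring. Without centring the log2 ratios were 0.55 and 0.56, short of the 1.5-fold limit. The local background at this promoter was high, at 26.5 reads in female CAST to 71.1 in male CAST.

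The region just 3′ of F5, the cofactor of the enzyme that makes thrombin, had 5.01-fold enrichment in male B6, 4.42-fold in female B6, 10.8-fold in male CAST and 8.05-fold in female CAST. Both CAST lists lay above both B6 lists, 2.04-fold in males and 1.53-fold in females after centring, at chr1:166150200-166151175. The other region higher in CAST lay in an intron in the window of Serpinf2, 595 bp from a TSS of its neighbour Serpinf1 (chr11:75234316-75235459), at 3.86-fold, 2.92-fold, 8.13-fold and 6.82-fold. It was 2.00-fold and 1.96-fold higher in CAST, and 1.001-fold and 1.002-fold higher in males than females, after centring.

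Among the regions found in both CAST lists only were one 23073 bp from the TSS of Mbl2, a lectin that recognises microbial sugars (chr19:30330491-30331204, 5.30-fold in males and 4.36-fold in females), and one in an intron of C8b, a terminal component (chr4:104440577-104441240, 4.34-fold and 3.03-fold). The weaker ones lay in C8g (2.47-fold and 3.21-fold) and between Fgb and Plrg1 (2.23-fold and 2.33-fold). Those in both B6 lists only lay between F11 and Klkb1 (3.66-fold in males and 2.73-fold in females), downstream of C8g (3.50-fold and 2.32-fold), downstream of Mbl2 (2.46-fold and 2.34-fold) and 3′ of C3 near Tnfsf14 (2.27-fold and 2.42-fold). CAST reads were mapped to a genome that carried CAST variants and converted to mm9, and whether this step placed or lost DHS at these sites was not tested.

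**Figure D4:**
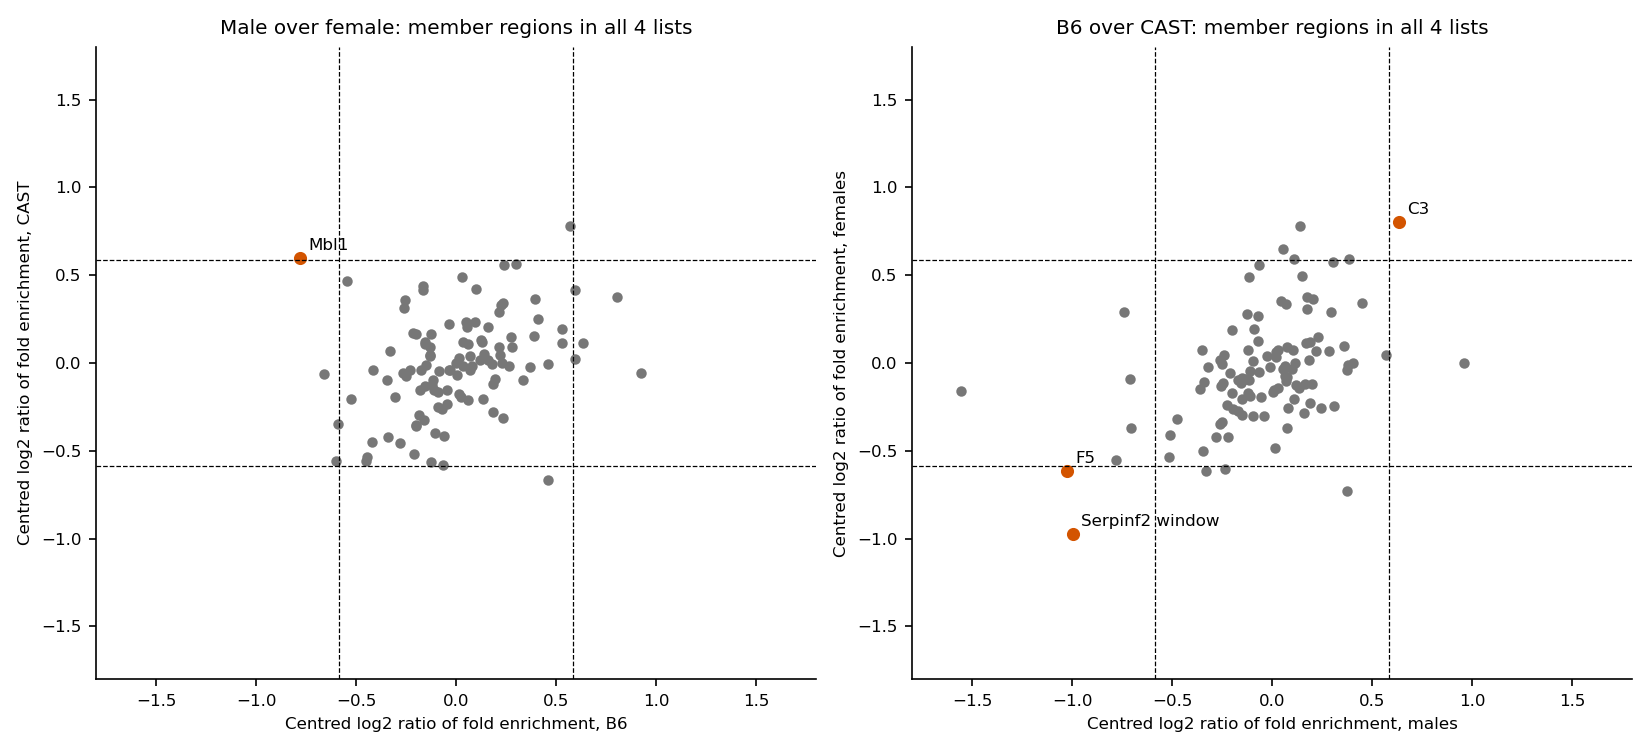
Centred log2 ratio of fold enrichment of the 110 regions found in all 4 lists, male over female in B6 and in CAST (left) and B6 over CAST in males and in females (right); each point is a region, dashed lines mark 1.5-fold, and the regions past the line on both axes are coloured and named. On the left the Mbl1 region, at −0.78 and 0.60, is the single coloured point, and on the right they are the regions at C3, F5 and in the Serpinf2 window.

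Among the recognition and convertase genes, Masp1, a protease that lectins activate, had the most regions of any gene, with 12 in all. An intronic Masp1 region had 9.73-fold enrichment in male B6, 7.02-fold in female B6, 12.2-fold in male CAST and 10.5-fold in female CAST. A region 3′ of Masp1 had 5.44-fold in male B6, none in female B6, 6.56-fold in male CAST and 4.58-fold in female CAST, so that female B6 was the list without a call. The Mbl1 promoter, of another microbe-binding lectin, had 7.48-fold, 5.30-fold, 7.13-fold and 4.46-fold, and the C2 promoter, whose product forms a convertase with C4, 3.36-fold, 2.71-fold, 3.94-fold and 3.94-fold. The promoters of Masp1, Masp2 and Mbl2 were between 2.35-fold and 5.42-fold in all lists.

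In the terminal group, Hc, the gene of complement C5, had 6 regions for B6 males, 2 for B6 females and 3 for either sex of CAST, and a region 1815 bp upstream of its TSS had 6.48-fold, 4.23-fold, 9.76-fold and 6.69-fold enrichment in male B6, female B6, male CAST and female CAST. C7 had a single region, at 2.35-fold from 20 reads in female CAST, the fewest reads of any promoter call in the set. C8a, C8b and C8g, which together form the C8 component, had promoters at 3.24-fold to 5.63-fold in all 4 lists. An intronic C8b region had 4.39-fold in male B6, none in female B6, 4.71-fold in male CAST and 3.32-fold in female CAST. As at the C6 and Kng1 promoters and the Masp1 3′ region, female B6 was the only list without a call. The same held at further regions of the set, such as some at Cpb2 and Vtn. Other regions, such as some at Masp1, Pros1 and C8a, lacked a call in female CAST alone. Neither pattern was counted over all regions.

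Of the complement control genes, Cfi, the protease that degrades active C3 and C4, had its promoter at 6.70-fold, 4.96-fold, 6.58-fold and 5.59-fold in male B6, female B6, male CAST and female CAST. Serping1, the C1 inhibitor, had 6.33-fold, 4.70-fold, 6.20-fold and 3.71-fold, lowest in female CAST, which was 1.51-fold below female B6 after centring. The promoter of Vtn, vitronectin, had 5.85-fold, 3.61-fold, 7.30-fold and 4.15-fold, with the males above the females in both strains, 1.23-fold in B6 and 1.48-fold in CAST after centring. C4bp had 3.03-fold, 2.79-fold, 4.06-fold and 4.68-fold.

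The promoters of the remaining clotting factors were called in every list. F2, the gene of thrombin, had 3.66-fold in male B6, 2.55-fold in female B6, 3.69-fold in male CAST and 3.07-fold in female CAST, and F10 had 4.73-fold, 3.27-fold, 4.35-fold and 4.21-fold. Those of F5, F11, F12 and Klkb1, the gene of plasma prekallikrein, were between 2.71-fold and 4.48-fold. None of them differed by sex or strain past 1.5-fold after centring. F13b had its promoter as its only region.

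The fibrinogen genes lie together on chromosome 3, and their 13 regions were shared among the windows. The Fga promoter had 6.40-fold in male B6, 4.77-fold in female B6, 7.88-fold in male CAST and 7.58-fold in female CAST, and the Fgg promoter 4.42-fold, 3.45-fold, 4.65-fold and 4.60-fold. The Fgb promoter had 3.46-fold, 2.59-fold and 3.75-fold and was not called in female CAST. Of the 13 regions, 0 were called in a single list, compared with 35.2% of all regions and 33.5% of those near a protein-coding gene.

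Among the anticoagulants and fibrinolysis genes, Plg, the gene of plasminogen, had 7.58-fold, 5.87-fold, 8.65-fold and 7.46-fold enrichment at its promoter, and Cpb2, which makes clots resistant to lysis, had 6.29-fold, 4.55-fold, 6.70-fold and 5.48-fold, in male B6, female B6, male CAST and female CAST. Both differed by at most 1.08-fold in each of the 4 comparisons after centring. The Proc promoter had 6.06-fold, 4.55-fold, 6.99-fold and 5.77-fold, and that of Serpind1, heparin cofactor II, 3.76-fold, 2.70-fold, 4.29-fold and 3.65-fold. Pros1, the gene of protein S, the cofactor of protein C, had 5 regions for B6 males, 3 for B6 females, 3 for CAST males and 0 for CAST females. Its promoter (chr16:62854086-62855031) had 3.87-fold, 3.2003-fold and 3.84-fold in the lists that held it. The local background of female CAST at this site is not known, so the part of depth in the missing call was not tested. Pros1 was the only gene without any region in female CAST.

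DHS were wider in males than in females at these genes, as in the genome. Over shared regions, the median log2 ratio of width of male over female was 0.25 in B6 and 0.37 in CAST, compared with 0.29 and 0.37 over all shared regions, and that of B6 over CAST was −0.03 in males and 0.13 in females, compared with 0.02 and 0.09. Widths follow depth as well as the extent of open chromatin, which cannot be told apart in these lists.

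Over all 207 regions, none of the 5 motifs differed from its share of all regions by more than its interval. In the 200 bp at the strongest summit, the C/EBP motif TTGCNNAA was matched in 14.01% of the 207 regions (Wilson 95% interval 9.93 to 19.4) and in 11.6% of all regions. The STAT5 motif TTCNNNGAA was matched in 6.76% (4.07 to 11.03) and 6.99%, the FOXA motif TGTTTAC in 4.35% (2.30 to 8.06) and 4.44%, the HNF6 motif ATTGATT in 2.90% (1.34 to 6.18) and 4.24%, and the HNF4 motif CAAAGTCCA in 1.93% (0.754 to 4.86) and 1.06%. Intervals cover counting error only, both strands were read, and matches to different motifs may overlap. HNF4 matches lay in 4 regions, at the Pros1 and Cfb promoters, in the Cfi window and 3′ of F11, and 2 STAT5 matches lay in a single region, the intronic F2 region. Of the C6 regions, the upstream one held an HNF6 match and the intronic one a FOXA match, and none matched STAT5 in this window. In the 110 regions in all 4 lists, the STAT5 motif was matched in 10.9% (6.35 to 18.1), compared with 6.03% of all regions in all 4 lists (5.69 to 6.38), and the C/EBP motif in 16.4% (10.6 to 24.4), compared with 10.3% (9.87 to 10.7). Both compared shares lay below the member intervals, and the intervals overlapped at their edges. The shares of FOXA (4.55%, compared with 3.77%), HNF4 (2.73%, compared with 1.03%) and HNF6 (1.82%, compared with 2.93%) had compared shares within their intervals. With 100 bp at the summit, the STAT5 share of the 110 regions was 7.27% (3.73 to 13.7), from 8 regions, compared with 3.08% (2.84 to 3.34). These intervals did not overlap. The C/EBP share was 5.45% (2.52 to 11.4), compared with 5.15%, which lay within its interval. The intervals treat regions as independent, and 5 motifs were read in both windows and both sets of regions. They are therefore no test of a difference.

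The other genes of the pathways, 36 genes fixed as a list with the members, include components made mainly outside hepatocytes such as C1qa, C1qb and C1qc, of the antibody-triggered branch, and Vwf, of platelet adhesion. Of the 36, 31 had a region, with 99 regions in all, of which 7 (4 at Proz and 3 at Kng2) also lay in the windows of F7, F10 or Kng1 and were counted there too. Of the 99, 31 were in all 4 lists (31.3%, compared with 35.6% of all regions). There were 15 in both male lists only (15.2%, compared with 9.38%), 0 in both female lists only (compared with 0.0622%), 9 in both B6 lists only (9.09%, compared with 3.32%) and 2 in both CAST lists only (2.02%, compared with 3.62%). The C1q genes, which adjoin, had a single region between them, called in male B6 alone, and Vwf had 3 regions for B6 males, 2 for B6 females, 2 for CAST males and 0 for CAST females. F9, the X-linked clotting factor, had 2, 2, 3 and 4 regions in the same order, and Kng2 had 6, 3, 5 and 4, including the 3 regions shared with Kng1.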

How the data were processed

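DNase-seq was measured in livers of 4 groups (male and female B6, male and female CAST), each of 4 libraries. The authors aligned reads with Bowtie2 and kept unique alignments, placing B6 reads on mm9 and CAST reads on a genome carrying CAST variants whose coordinates were converted to mm9, merged the libraries of a group, called DHS with MACS2 and removed blacklisted peaks and peaks of duplicated reads. The deposited lists give, for each peak, a score, a ratio (fold enrichment over local background), the −log10 p and q, and the summit position. Merging leaves no replicate spread, so 16 libraries gave 4 values per site and no test was made. Reads could be lost at near-identical copies and at CAST variants, which was not tested.

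From these, peaks of the 4 lists were joined at an overlap of 1 bp (51482 regions) and those overlapping the 38 genes with 20 kb on each side were taken. The members, lists and motifs were chosen with earlier results of these data known. A region's value in a list was the fold enrichment of its strongest peak. Reads at summits and their background were recovered from the −log10 p and fold of the deposited peaks, within 0.02 on the −log10 p for at least 99.97% of peaks of each list. Ratios were centred on the median ratio of all regions in both lists, with a limit of 1.5-fold. Regions within 2.5 kb of a TSS of a gene were its promoter regions, and where there were several the promoter was a single one of them. Named with full values were promoters, regions in both lists of 1 sex or strain only, and regions past the limit the same way in both strains or both sexes, at most 10 of each kind. Other regions were named after their values were seen, and the joint counts of presence and fold were added then. Motifs were searched on both strands of 200 bp of the mm9 genome at the strongest summit. Alternatives were the overlap, the threshold on q, lists of equal size, the window, the nearest TSS, the limit, the centring and the motif window. The computations used Python 3.11.15, numpy 2.4.6, pandas 2.3.3, scipy 1.17.1 and matplotlib 3.10.9, and were tested on simulated peak lists.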

Additional observations from a re-analysis of the deposited data

Results flagged for a closer look

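At the region upstream of Mbl1 (chr14:41953830-41954569), the sex difference had opposite directions in the 2 strains. It had 3.24-fold enrichment in male B6 and 4.22-fold in female B6, from 52 and 62 reads at the summit, and 10.1-fold in male CAST and 5.59-fold in female CAST, from 181 and 49 reads. The centred log2 ratio of male over female was −0.78 in B6 and 0.60 in CAST. The difference between the strains was not tested, since each value comes from 1 pooled list. Without centring the B6 value was −0.38, no longer past 1.5-fold. Male CAST stood apart from the other 3 lists, at 2.94-fold over male B6 after centring, and the 2 female lists differed 1.12-fold.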

How the results depend on the processing

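No paired analysis was possible because each group is 1 pooled list and no result came from a test. Leaving out a replicate was likewise not possible. The 207 regions became 129 at a −log10 q of at least 15.7. Regions in a single list of a pair numbered 54 by sex in B6, 47 by sex in CAST, 55 by strain in males and 40 by strain in females. At that q they became 56 and 66 by sex, and 20 in males and 20 in females by strain. By sex these split 55 male-only to 1 female-only in B6 and 66 to 0 in CAST. Where that q was asked only of the list holding the region, they became 7, 10, 6 and 1. Lists of equal size gave 27 and 26 by sex and 22 in males by strain, which split 12 male-only to 15 female-only in B6, 15 to 11 in CAST and 9 B6-only to 13 CAST-only in males. A 50% overlap gave 74 by sex in CAST, 5 kb windows 35 by strain in males, and regions with a member's TSS as the nearest 35, 31 and 35 in the first 3. Shared regions past the limit numbered 9 and 8 by sex and 11 and 10 by strain. They became 0, 1, 6 and 1 at the stricter q, and 0, 1, 3 and 0 at 2-fold. Without centring they were 29, 17 and, in females by strain, 16. With 5 kb windows there were 6 in males and 5 in females by strain, and with the nearest TSS 4 in females. The same direction in both strains, at 0 regions, became 7 without centring. The same direction in both sexes, at 3, became 1 at the stricter q, 1 with the nearest TSS, 0 at 2-fold and 6 without centring. Regions in both lists of a sex or strain only, 19 in all, became 45 at the stricter q, of which 43 were male-only, 2 at the q of the holding lists, 10 with 5 kb windows and 12 with the nearest TSS. In 100 bp at the summit the motif shares became 3.86% for C/EBP, 1.45% for FOXA, 0% for HNF4 and 0.966% for HNF6, compared with 5.73%, 2.13%, 0.484% and 2.00% of all regions, so that C/EBP and HNF4 turned from above to below the share of all regions, while STAT5, at 4.83% compared with 3.56%, turned from below to above. Fewer peaks, fewer bases or a moved zero are part of these settings, and no other cause was tested. Counting the STAT5 share and the sex counts at the stricter q, 38 alternative values of counts, widths and motifs were close to the reported ones. Close meant within 1.5 times of the count or share, or 0.1 on the log2 scale for widths. Of the single regions past the limit, 66 alternative values kept direction and limit, 15 kept the direction alone and 0 reversed. Of the 38 such ratios, 29 had no value at the stricter q and 4 at 50% overlap, since the region was no longer shared, and are not in these counts. Of the 15, 14 were without centring, and the Serpinc1 promoter fell to 0.58 at the stricter q. Depth limited absence calls, since a site at the genome background needed at least 19 reads in female CAST and 28 to 30 in the other lists.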
